A study of Ambystoma mexicanum with 6 samples.

Results

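In limbs of the axolotl treated with iMDK, 73 assembled genes expressed a different main transcript than in limbs treated with DMSO. The group means of the gene as a whole differed less than 1.5-fold, while single limbs could differ more. The 73 genes were selected on the measured values of both groups. The rule took every assembled gene whose isoforms summed to at least 5 TMM-scaled TPM in each of the 6 libraries. It kept a gene if 1 isoform was the highest in all 3 iMDK libraries, a different isoform was the highest in all 3 DMSO libraries, and the mean gene sums of the groups differed less than 1.5-fold. TMM-scaled TPM is the share of a transcript among all transcripts of a library, corrected for transcript length and scaled between libraries. Of 1388798 assembled genes, 10300 passed the minimum and 6917 of these had more than 1 isoform, so the 73 genes were 1.06% of the genes in which a switch was possible. Because these genes were chosen by their isoform levels and gene sums, the differences between iMDK and DMSO are a description. Counts of limma calls among them are given beside those over all transcripts or genes, and are no evidence for the switches.

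The series measured RNA of regenerating limbs of juvenile white axolotls (Ambystoma mexicanum) at 11 days post-amputation (dpa). The first group, of 3 limbs, was treated with iMDK, a small molecule used to inhibit the heparin-binding growth factor midkine, and the other, also of 3 limbs, with its solvent DMSO. The labels place the start of both treatments at amputation, whereas the methods also describe a later start and leave it unnamed for these limbs. Each limb came from a different animal according to the methods, and all 6 were amputated and regenerating, so no uninjured limb and no limb without solvent was compared here.

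A gene can give several mature RNAs. Transcription can start at different promoters, exons can be joined or skipped, introns can be kept, and the poly(A) tail can be added at different places, so that the RNAs of a gene can differ in the protein they encode, in their stability and in how well they are translated. In a transcriptome assembled from reads without a genome, an isoform is an assembled path through overlapping reads. It can therefore be a splice form, a form with another end, an allele or a close copy of the gene, and the matrix does not tell these apart.

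The 6 libraries held between 126965 and 198094 transcripts above 0. Read totals cannot be recovered from TPM, and the depth behind each value is unknown. Log2 values correlated at 0.773 to 0.806 between libraries of a group and at 0.733 to 0.770 between libraries of different groups. Summed levels of erythrocyte markers were 43.4 to 81.6 in iMDK and 7.52 to 15.3 in DMSO (4 of 5 genes with a higher mean in iMDK), without overlap. The ranges overlapped for epidermis (12231 to 14103 in iMDK and 8631 to 13089 in DMSO), connective tissue (1530 to 1595 and 777 to 1891), macrophages (3809 to 5792 and 3763 to 4360), muscle (2.31 to 5.31 and 1.12 to 2.64) and, by a narrow margin, endothelium (20.99 to 33.01 and 14.4 to 21.04). The mean was higher in iMDK for 6 of 7 epidermal, 7 of 8 connective tissue, 7 of 8 macrophage, 2 of 2 endothelial and 1 of 2 muscle genes. These are assembled genes, and K2C5, FBN2, CATK and MPEG1 were each assembled as more than 1. The counts therefore rest on 6 epidermal, 6 connective tissue and 5 macrophage markers. The macrophage list also held CATK, a bone matrix degrading enzyme, and so covers osteoclasts too. The connective tissue list likewise covers matrix genes of cartilage and bone. None of these markers was at 0 in all libraries. In tissue samples, fewer cells of a type and less RNA per cell cannot be told apart, and the part of cell composition in the switches was not tested.

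A consistent main isoform was the usual state of a gene in these limbs. Of the 6917 genes, 5749 had 1 isoform highest in all iMDK libraries and 5702 in all DMSO libraries. In 5183 genes this held within both groups, and in 5084 of them the same isoform led in all 6 libraries. The other 99 (1.91% of 5183) had a different leading isoform in each group, of which 73 had similar sums and 26 differed 1.5-fold or more in their sums, 13 higher and 13 lower in iMDK. Libraries of the same group also disagreed: 16.9% of the 6917 genes had no common leading isoform in iMDK and 17.6% had none in DMSO. For this, 1 departing library or a tie is enough, whereas a switch needs agreement of all 3 libraries in each group. These shares and the 1.91% are therefore not measured alike. The number of genes in which a library alone departed from its group ranged from 336 (iMDK 3) to 414 (iMDK 2) and from 361 (DMSO 1) to 397 (DMSO 2). A pair of genes had been excluded by name from the rule. Of these, c1067192_g2 switched, with sums that differed 1.56-fold, and c1084331_g1 had the same leading isoform in every library.

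Across the 73 genes the main isoform in iMDK took a median share of 67.5% of the gene sum in iMDK and 26.6% in DMSO. The main isoform in DMSO took a median of 22.02% in iMDK and 64.3% in DMSO. The remaining isoforms together took a median of only 1.46% in iMDK and 0.261% in DMSO, so that in most of these genes a pair of isoforms carried nearly the whole signal. In 24 of the 73 genes only 2 isoforms were assembled, which fixes this remaining share at 0. The largest mean remaining share was 55.6% in iMDK and 49.5% in DMSO. Taken as medians over the genes, shares differed little between limbs of a group, while single genes could differ widely. The rule asked for the same leading isoform in all 3 libraries of a group, so closeness within a group was partly set by selection. The spread in other genes was not set beside it. The median share of the iMDK-dominant isoform was 64.6%, 67.6% and 64.6% in iMDK 1, 2 and 3, and 30.6%, 24.2% and 27.2% in DMSO 1, 2 and 3. Its SD within a group had a median of 4.46 percentage points in iMDK and 4.26 in DMSO. In 23 genes the SD was under 5 points in both groups, and in 13 it was 20 points or more in at least 1 group.

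**Figure D1:**
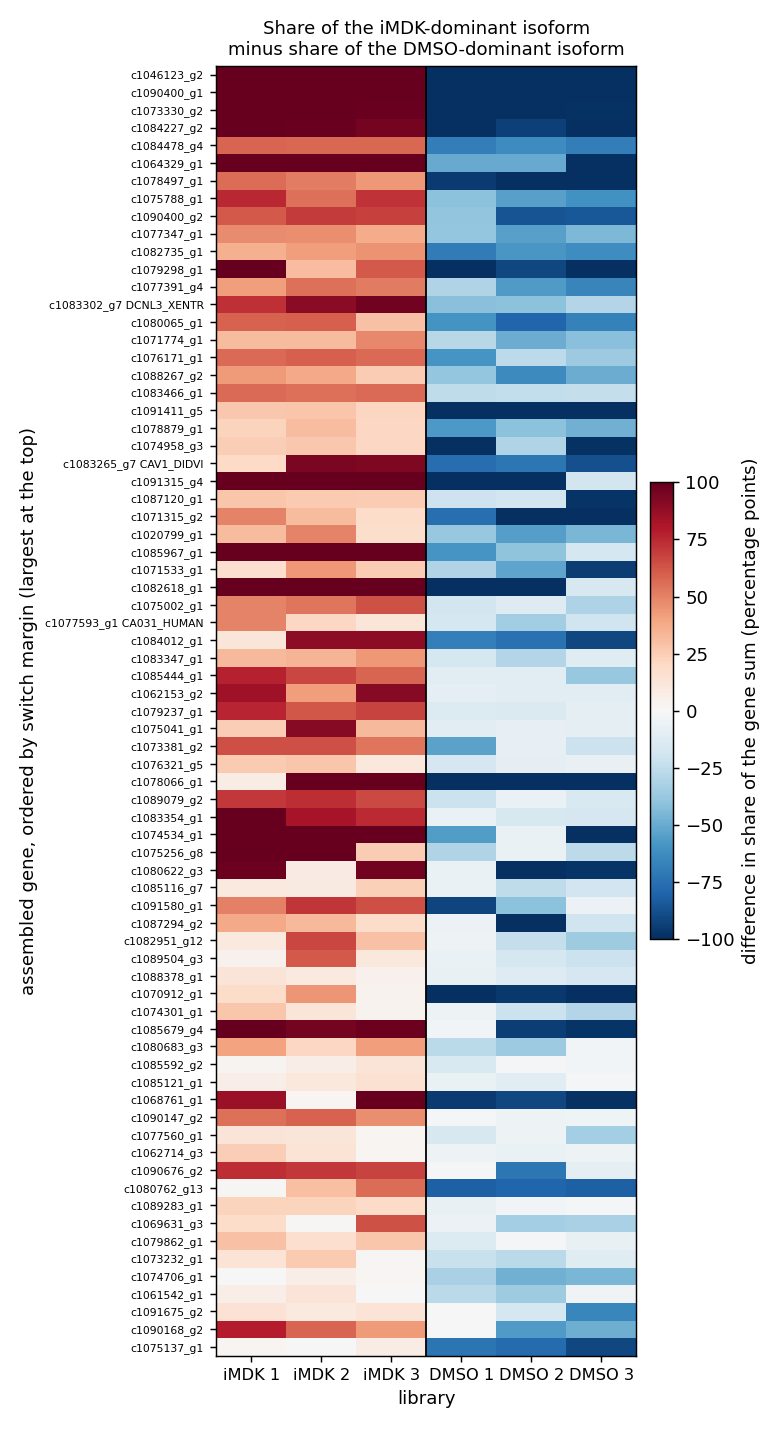
Share of the isoform dominant in iMDK minus share of the isoform dominant in DMSO, in percentage points of the gene sum (color), for each of the 73 genes (rows, largest switch margin at the top) in each library (columns, iMDK left and DMSO right). The upper rows are fully red in iMDK and fully blue in DMSO, whereas 24 genes toward the bottom have at least 1 library under 5 points.

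The strength of a switch was summarized as its margin, the smallest lead over the 6 libraries of the group's own main isoform over the main isoform of the other group, in percentage points of the gene sum. Isoforms that were main in neither group do not enter the margin, so the lead over the second isoform can be smaller. The margin had a median of 9.58 points and ran from 0.0917 to 100. It was at least 50 points in 6 genes, from 20 to 50 in 16, from 5 to 20 in 27 and under 5 in 24, among them 7 under 1 point. In 53 genes the leading isoform made up 50% or more of the gene sum in all 6 libraries, and in 14 it was at least 2-fold above the main isoform of the other group in all 6. The plot of shares by gene and library shows this gradient from complete replacement to near ties.

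The exchange of isoforms was complete or nearly so in 4 genes, none of which has a name here. In c1046123_g2 the isoform i2 was at 11.52, 17.9 and 14.1 TPM in iMDK 1, 2 and 3 and listed at 0 in all 3 DMSO libraries. Its isoform i1 was listed at 0 in all 3 iMDK libraries and at 16.4, 15.6 and 15.6 TPM in DMSO 1, 2 and 3. The gene sums therefore stayed close, at 14.5 ± 3.20 TPM in iMDK and 15.9 ± 0.491 TPM in DMSO (SD, n = 3 each).

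The gene c1090400_g1 had the same form. Its isoform i2 was at 22.9, 17.1 and 20.1 TPM in iMDK and listed at 0 in all DMSO libraries, and i1 was listed at 0 in all iMDK libraries and at 9.59, 16.3 and 20.5 TPM in DMSO. A neighboring gene of the same assembly component, c1090400_g2, also switched, although incompletely. There i2 was at 15.97, 14.5 and 18.8 TPM in iMDK and 4.30, 1.13 and 1.72 TPM in DMSO, and i1 was at 3.85, 2.35 and 3.52 TPM in iMDK and 9.94, 16.99 and 21.2 TPM in DMSO. Across the DMSO libraries the i1 isoforms of both genes were lowest in DMSO 1 and highest in DMSO 3, at nearly equal values. Genes of an assembly component are built from connected sequence, so these are not independent cases. The 73 genes came from 72 components.

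In c1073330_g2 the isoform i3 was at 23.8, 25.8 and 25.2 TPM in iMDK and at 0, 0 and 0.00800 TPM in DMSO. Isoform i4 was listed at 0 in iMDK and was at 36.4, 36.6 and 31.3 TPM in DMSO. The values were tight within each group, and the sums of 25.1 ± 1.08 TPM in iMDK and 34.9 ± 2.75 TPM in DMSO did not overlap. In c1084227_g2, which has 7 assembled isoforms, i6 was at 26.3, 17.1 and 16.1 TPM in iMDK and listed at 0 in DMSO, and i2 was listed at 0 in iMDK and at 15.1, 12.4 and 12.02 TPM in DMSO. Its sums, 20.1 ± 5.33 TPM in iMDK and 13.5 ± 1.52 TPM in DMSO, lay just inside the limit of the rule.

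**Figure D2:**
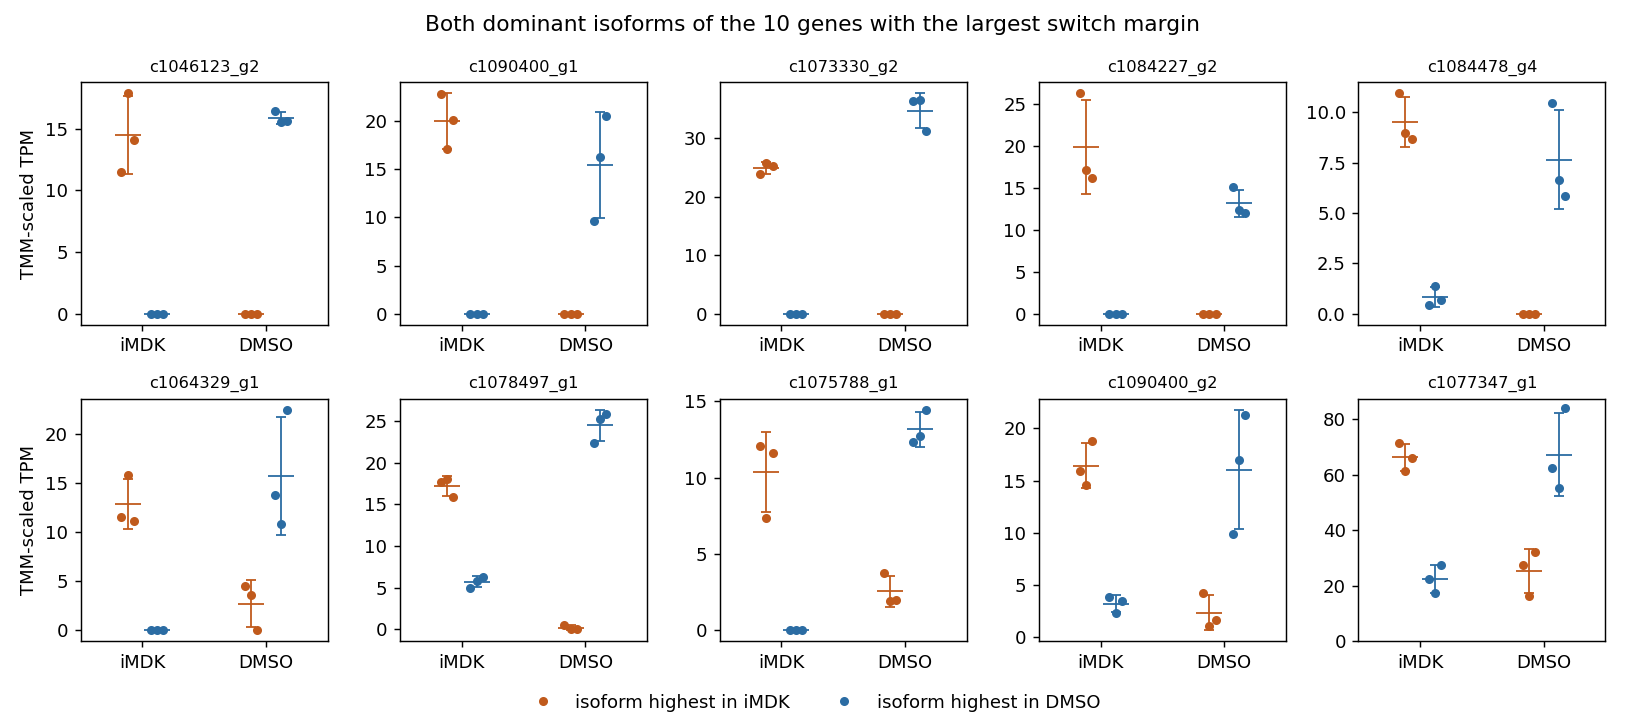
TMM-scaled TPM of both dominant isoforms in the 10 genes with the largest switch margin, by group (iMDK left, DMSO right). Points are libraries, horizontal lines are means and bars are SD (n = 3). In the first 4 panels the isoform of the other group lies at or near 0, and in c1077347_g1 both isoforms are above 16 in every library.

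Margins from 36.9 to 57.3 points were found in 6 further genes, among them c1090400_g2 above. In c1084478_g4, with 12 isoforms, i7 was at 11.0, 8.98 and 8.69 TPM in iMDK and listed at 0 in DMSO, while i3 was at 0.427, 1.36 and 0.700 TPM in iMDK and 10.5, 6.65 and 5.84 TPM in DMSO. Another isoform of this gene, i11, followed the same direction at 3.40, 1.43 and 1.73 TPM in iMDK and 0 in all DMSO libraries. In c1064329_g1 the i1 isoform was at 11.6, 15.8 and 11.2 TPM in iMDK and at 4.56, 3.55 and 0 TPM in DMSO. Its i2 isoform was listed at 0 in iMDK and was at 13.8, 10.9 and 22.5 TPM in DMSO. DMSO 3 was thus the only library of its group without the i1 isoform.

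In c1078497_g1, i2 was at 17.7, 18.0 and 15.8 TPM in iMDK and 0.529, 0 and 0 TPM in DMSO, and i1 was at 4.995, 5.80 and 6.27 TPM in iMDK and 22.4, 25.2 and 25.9 TPM in DMSO. Its sums were steady, at 22.9 ± 0.885 TPM in iMDK and 24.7 ± 1.55 TPM in DMSO. In c1075788_g1, i3 was at 12.1, 7.36 and 11.6 TPM in iMDK and 3.73, 1.91 and 2.0 TPM in DMSO, and i2 was listed at 0 in iMDK and at 12.3, 12.7 and 14.4 TPM in DMSO. The remaining isoform of that gene, i1, overlapped between groups, at 3.94, 6.03 and 4.53 TPM in iMDK and 4.76, 5.32 and 4.18 TPM in DMSO. The last of the 6 was c1077347_g1, which is described with the abundant genes.

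Names were taken from blastx entries given for transcripts of the same assembly, mostly those differentially expressed in the skin flap experiment of the study. Only 3 of the 73 genes had one, out of 656 named genes with more than 1 isoform and sufficient level, of which 457 had a common leading isoform within both groups. The other 70 genes have no name here. A name given to any isoform was used for the whole assembled gene, so it need not come from a main isoform.

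DCNL3 (DCNL3_XENTR, c1083302_g7) belongs to the DCN1-like proteins, which promote the attachment of the ubiquitin-like protein NEDD8 to cullins, the scaffolds of a large class of ubiquitin ligases. Its isoform i1 was at 8.82, 8.53 and 9.26 TPM in iMDK and 2.25, 2.06 and 2.35 TPM in DMSO, narrow ranges that did not overlap. Isoform i3 was at 1.23, 0.437 and 0 TPM in iMDK and 6.50, 5.47 and 5.47 TPM in DMSO. The remaining isoform, i2, was also lower in every iMDK library, at 0.335, 0 and 0.313 TPM against 1.501, 0.809 and 2.68 TPM in DMSO. The share of i1 was thus 84.96%, 95.1% and 96.7% in iMDK and 21.9%, 24.7% and 22.4% in DMSO. The sum was the same in both groups within the spread, 9.64 ± 0.713 TPM in iMDK and 9.69 ± 1.18 TPM in DMSO.

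CAV1 (CAV1_DIDVI, c1083265_g7) is caveolin-1, the coat protein of caveolae, the small invaginations of the plasma membrane. Isoform i2 was at 25.6, 80.6 and 73.0 TPM in iMDK and listed at 0 in all DMSO libraries. Isoform i1 was at 14.1, 0 and 0 TPM in iMDK and 37.2, 50.1 and 40.7 TPM in DMSO. iMDK 1 was intermediate: it alone of its group held i1, and within the group it held the most i3, which was at 17.8, 4.91 and 4.98 TPM in iMDK and 11.5, 19.2 and 5.59 TPM in DMSO. The share of i2 in iMDK was 44.5% in iMDK 1, against 94.3% and 93.6% in iMDK 2 and 3. The sums overlapped, at 57.6, 85.5 and 78.0 TPM in iMDK and 48.7, 69.3 and 46.3 TPM in DMSO.

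CA031 (CA031_HUMAN, c1077593_g1) is the entry of COA6, a factor for the assembly of cytochrome c oxidase in mitochondria. It had the smallest margin of the named genes, 12.3 points. Isoform i6 was at 23.0, 11.45 and 10.9 TPM in iMDK and 11.4, 7.36 and 9.48 TPM in DMSO, so that the groups overlapped. Isoform i3 was at 5.70, 7.15 and 7.06 TPM in iMDK and 17.6, 15.8 and 15.9 TPM in DMSO, without overlap. Among its 8 isoforms, i1 was at 1.48, 0.853 and 2.05 TPM in iMDK and listed at 0 in DMSO. Isoform i8 varied between limbs of both groups, at 1.69, 0.845 and 10.5 TPM in iMDK and 5.76, 0.00100 and 6.91 TPM in DMSO. In iMDK 3 the leading i6 was thus barely above i8, at 10.9 against 10.5 TPM, which the margin does not count. The sums were 28.9 ± 7.40 TPM in iMDK and 31.0 ± 6.005 TPM in DMSO.

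**Figure D3:**
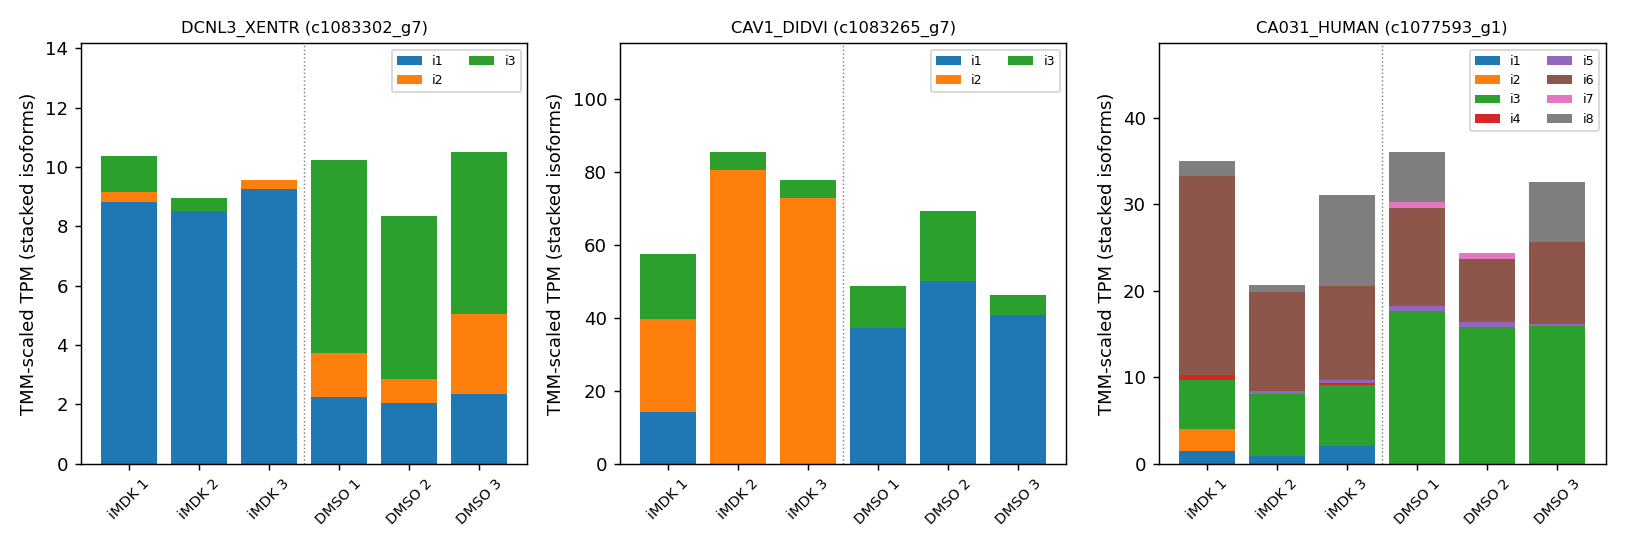
Stacked TMM-scaled TPM of every isoform of the 3 named genes, with iMDK 1 to 3 left and DMSO 1 to 3 right of the dotted line. Bar heights overlap between groups, while the main color changes in each panel, and iMDK 1 is the intermediate library for CAV1.

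The genes that switched covered a wide range of levels. The mean gene sum over the 6 libraries ran from 6.32 to 527.8 TPM with a median of 18.1, against a median of 20.9 TPM in the other 6844 genes with more than 1 isoform. The most abundant was c1091411_g5, with 2 isoforms. Its i2 was at 301.8, 496.3 and 330.1 TPM in iMDK and listed at 0 in all DMSO libraries, and i1 was at 172.4, 279.2 and 215.0 TPM in iMDK and 554.1, 201.6 and 616.2 TPM in DMSO. The i2 share was 63.6%, 64.0% and 60.6% in iMDK. Levels of i1 overlapped between groups, with DMSO 2 below 2 of the iMDK libraries, whereas i2 separated them completely. The gene sums varied widely between limbs, at 598.3 ± 157.5 TPM in iMDK and 457.3 ± 223.6 TPM in DMSO.

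A partial shift with little spread between limbs was that of c1083466_g1, also with 2 isoforms. Isoform i1 was at 76.8, 83.3 and 76.9 TPM in iMDK and 45.9, 39.5 and 43.4 TPM in DMSO, and i2 was at 21.5, 24.2 and 21.5 TPM in iMDK and 77.0, 65.2 and 71.0 TPM in DMSO. The share of i1 was 78.2%, 77.5% and 78.1% in iMDK and 37.3%, 37.7% and 37.9% in DMSO. The SD of this share was 0.378 points in iMDK and 0.293 in DMSO.

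In c1077347_g1, i2 was at 71.4, 61.5 and 66.01 TPM in iMDK and 27.5, 16.4 and 32.1 TPM in DMSO, and i1 was at 22.3, 17.3 and 27.5 TPM in iMDK and 62.3, 55.3 and 84.0 TPM in DMSO. Its remaining isoform, i3, was at 10.1, 15.9 and 11.0 TPM in iMDK and listed at 0 in DMSO. In c1078879_g1, i2 was at 37.8, 35.5 and 33.9 TPM in iMDK and 4.39, 6.90 and 6.33 TPM in DMSO, and i4 was at 18.2, 11.3 and 17.4 TPM in iMDK and 37.1, 29.4 and 35.6 TPM in DMSO. Here too another isoform, i5, was at 18.8, 16.997 and 15.5 TPM in iMDK and listed at 0 in DMSO. The sums of c1078879_g1 did not overlap, with 81.3 ± 6.06 TPM in iMDK and 57.5 ± 2.70 TPM in DMSO.

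The second most abundant gene, c1089283_g1, met the rule without any gain in the mean share of its iMDK-dominant isoform. Isoform i7 was at 65.6, 86.2 and 80.9 TPM in iMDK and 60.4, 69.9 and 77.8 TPM in DMSO, and its mean share differed by -0.516 points between iMDK and DMSO. Isoform i8 was at 34.5, 47.0 and 47.8 TPM in iMDK and 69.7, 73.3 and 80.0 TPM in DMSO. Most of the rest of the sum in iMDK lay in 2 other isoforms, i2 at 14.2, 11.7 and 16.9 TPM in iMDK and 0 in DMSO, and i5 at 22.3, 32.4 and 28.0 TPM in iMDK and 0, 0 and 0.811 TPM in DMSO. The lead of i8 over i7 in DMSO was 1.39 points at its smallest, in DMSO 3. It was the only gene of the 73 in which the mean share of the iMDK-dominant isoform was not higher in iMDK.

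The last 4 of the abundant genes varied more between limbs or came closer to a tie. In c1090676_g2, i1 was at 63.7, 53.02 and 46.9 TPM in iMDK and 41.5, 0 and 28.6 TPM in DMSO, and i2 was listed at 0 in iMDK and at 43.4, 63.8 and 37.6 TPM in DMSO. In c1075256_g8, i1 was at 82.2, 81.9 and 43.3 TPM in iMDK and 17.4, 22.5 and 31.6 TPM in DMSO, and i2 was at 0, 0 and 25.7 TPM in iMDK and 32.4, 25.6 and 54.3 TPM in DMSO, where iMDK 3 and DMSO 2 overlapped. In c1091675_g2 the DMSO libraries ranged from a tie to a clear lead. Its i2 was at 50.3, 39.6 and 37.5 TPM in iMDK and 48.7, 23.0 and 13.7 TPM in DMSO, and i1 was at 37.8, 32.7 and 28.3 TPM in iMDK and 48.8, 32.8 and 64.5 TPM in DMSO. In c1075137_g1, which had the smallest margin of all (0.0917 points, in iMDK 2), i1 was at 36.4, 32.2 and 31.6 TPM in iMDK and 9.78, 6.26 and 3.33 TPM in DMSO. Its i2 was at 34.8, 32.1 and 27.4 TPM in iMDK and 62.2, 48.3 and 71.8 TPM in DMSO. Both isoforms of c1075137_g1 were thus well separated between groups, and the small margin came from near-equal shares in iMDK.

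**Figure D4:**
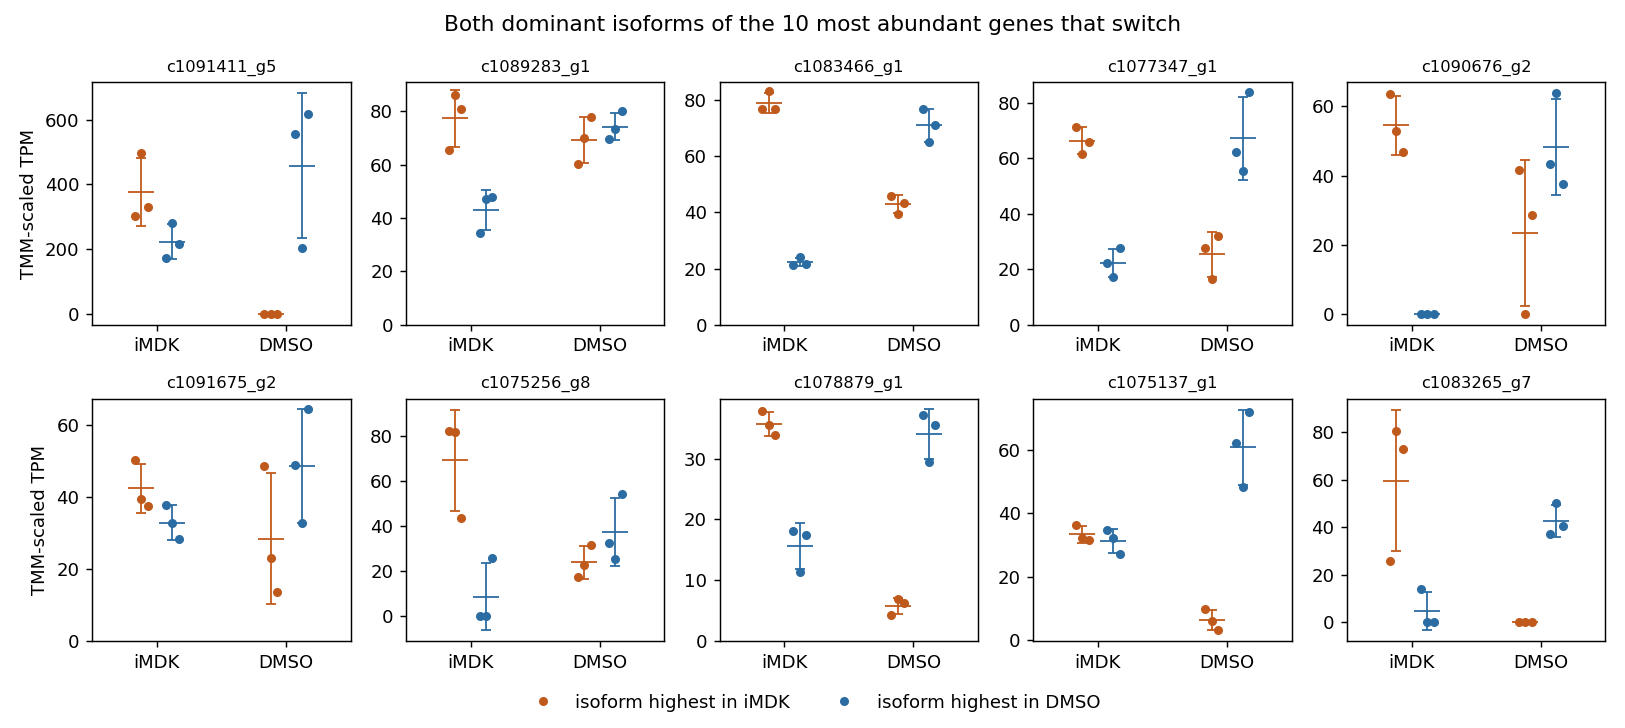
TMM-scaled TPM of both dominant isoforms in the 10 most abundant genes that switched, by group (iMDK left, DMSO right). Points are libraries, horizontal lines are means and bars are SD (n = 3). The i1 isoform of c1091411_g5 has the widest spread in DMSO, and the i7 isoform of c1089283_g1 overlaps between the groups.

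The 4 genes with the smallest margins included c1091675_g2 and c1075137_g1 above. The others were c1090168_g2 and c1061542_g1. In c1090168_g2, i3 was at 7.53, 7.07 and 3.70 TPM in iMDK and 4.58, 1.32 and 1.49 TPM in DMSO, and i1 was at 0.0470, 1.89 and 0.932 TPM in iMDK and 4.59, 4.79 and 4.29 TPM in DMSO, so that DMSO 1 was a tie but for 0.109 points. In c1061542_g1, i3 was at 6.49, 5.64 and 5.89 TPM in iMDK and 4.30, 1.51 and 7.42 TPM in DMSO, and i2 was at 5.33, 4.27 and 5.81 TPM in iMDK and 7.48, 4.01 and 8.06 TPM in DMSO. Neither isoform of c1061542_g1 separated the groups. It met the rule by order within each library alone.

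At the minimum level, the lowest library sum was 5.02 TPM in c1076321_g5 and 5.33 TPM in c1082951_g12, just inside, and 4.87 TPM in c1085775_g1 and 4.86 TPM in c1082675_g9, just outside. At the limit on the sums, the fold between the mean sums was 1.496 in c1084227_g2 and 1.49 in c1082951_g12, just inside. It was 1.52 in both genes just outside, c1084567_g3 and RFXK (RFXK_HUMAN, c1084825_g1), the entry of a subunit of the RFX complex that binds promoters of MHC class II genes.

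The ratio of the mean sums, iMDK over DMSO, ran from 0.672 to 1.496 with a median of 0.933. It was below 1 in 46 genes (63.0%) and above 1 in 27. Of 6020 other genes with more than 1 isoform whose sums also differed less than 1.5-fold, 61.0% were lower in iMDK and the median ratio was 0.946. The direction of the sums was therefore close to that of the genes that did not switch. With limma on sums of assembled genes, 0 of 73 were called at adjusted p under 0.05 and a fold above 2, against 24 of 44342 genes tested (0.0541%). An unadjusted p under 0.05 was found for 6 of the 73 and for 4730 of the 44342. Since the rule itself limits the fold of the sums, the 0 is a property of the rule.

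**Figure D5:**
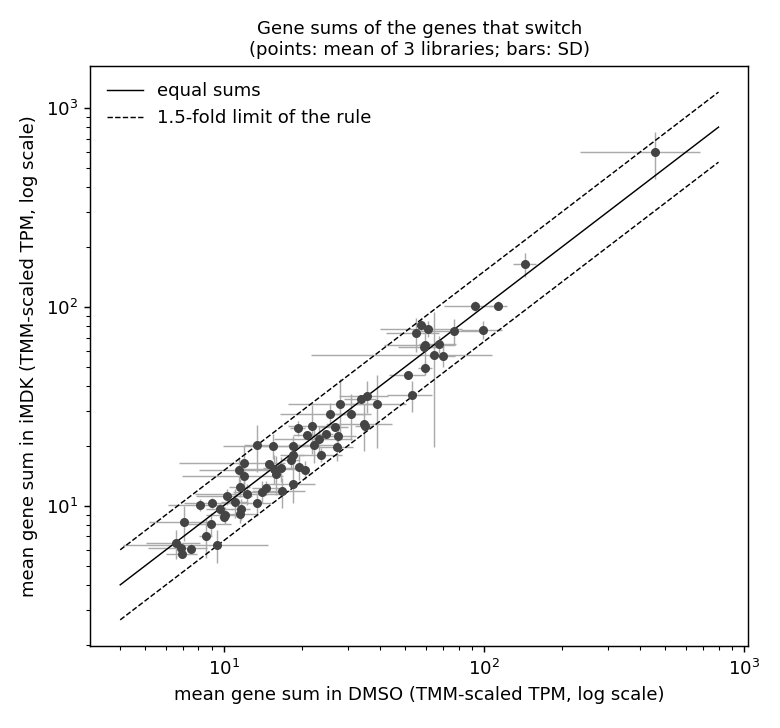
Mean gene sum in iMDK (vertical axis) against DMSO (horizontal axis) for the 73 genes, in TMM-scaled TPM on log scales. Points are means of 3 libraries, bars are SD, the solid line marks equal sums and the dashed lines the 1.5-fold limit of the rule. Points lie on both sides of the line of equal sums, with 46 genes below and 27 above it.

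An isoform listed at 0 throughout a group was frequent in these genes. The iMDK-dominant isoform was at 0 in all DMSO libraries in 11 genes, the DMSO-dominant isoform was at 0 in all iMDK libraries in 13, and 3 genes were among both. In the remaining 52 genes neither was. Where isoforms share most of their reads, the estimate of an isoform can fail and give 0. No fold of a single isoform is therefore given against such values. The limma calls and median log2 differences further below do include them. Counting any isoform at 1 TPM or more in every library of a group and at 0 in every library of the other, 25 of the 73 genes (34.2%) and 123 of the other 6844 (1.80%) held at least 1. For isoforms present in iMDK the numbers were 15 and 58 genes, and for isoforms present in DMSO they were 14 and 69. Such an isoform is part of what the rule looks for, so this difference is no separate finding.

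The 73 genes also held 145 isoforms that were dominant in neither group, of which 37 were at 0 in all 6 libraries. Among the 108 others, 8 isoforms in 8 genes were above 0 in all iMDK libraries and at 0 in all DMSO libraries, and 2 isoforms in 2 genes showed the reverse. Those of c1077347_g1, c1078879_g1, c1089283_g1, c1084478_g4 and CA031 given above were among the 8. The number of assembled isoforms per gene had a median of 3, as in the other genes, and reached 15. More than 3 isoforms were assembled for 34.2% of the 73 genes and for 44.7% of the others.

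In 8 genes a single limb set the margin, with a smallest lead under 20 points and leads of 50 points or more in the other 5 libraries. The library was iMDK 1 in CAV1 and 2 unnamed genes, iMDK 2 in 1, DMSO 1 in 1, DMSO 2 in 1 and DMSO 3 in 2. The examples that follow were chosen after their values were seen. In c1078066_g1, i2 was at 7.59, 10.3 and 10.9 TPM in iMDK and listed at 0 in DMSO, and i1 was at 6.55, 0 and 0 TPM in iMDK and 21.1, 15.3 and 13.8 TPM in DMSO. In c1085679_g4, i2 was at 13.2, 11.6 and 10.2 TPM in iMDK and 8.61, 0.364 and 0.105 TPM in DMSO, and i1 was at 0, 0.237 and 0.119 TPM in iMDK and 9.07, 12.01 and 11.98 TPM in DMSO. In both, the departing limb held both isoforms in near-equal amounts, whereas the others of its group held nearly 1 alone. Over all 73 genes the smallest margin fell in each of the 6 libraries, in 5 genes (iMDK 2) to 17 genes (iMDK 3).

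The rule used the same contrast as the counts that follow, so nothing is read from them. The iMDK-dominant isoform was higher in all iMDK libraries than in any DMSO library in 56 of 73 genes, against 8.59% of all 51718 transcripts tested. The DMSO-dominant isoform was lower in all iMDK libraries in 63, against 8.41%. Both held in 50 genes, only the first in 6, only the second in 13 and neither in 4. With limma on log2(value + 0.5), 17 of the iMDK-dominant isoforms were called higher, where 0.311% of all transcripts were, and 17 of the DMSO-dominant isoforms were called lower, where 0.23% were. These 34 calls fell in 29 genes, and 44 genes had none. They were 20, 22 and 16 without iMDK 1, 2 and 3, and 22, 25 and 22 without DMSO 1, 2 and 3. The 34 calls included all 11 iMDK-dominant isoforms at 0 in every DMSO library. They also included all 13 DMSO-dominant isoforms at 0 in every iMDK library. Against such values the added 0.5 sets the size of the difference, and the group at 0 has no spread. The median log2 difference between iMDK and DMSO was 1.59 for the iMDK-dominant isoforms, -1.66 for the DMSO-dominant isoforms and -0.02 over all transcripts. These medians include the isoforms at 0 throughout the other group.

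Proteins that act on pre-mRNA and on mRNA ends were examined for their own levels, which the rule did not use. Both lists could hold only factors with a name here, mostly from transcripts differentially expressed in the skin flap experiment of the study. They are therefore a preselected part of such factors and no full survey of them. Neither of these lists held a called gene. Of 22 splicing factors and hnRNP proteins listed, 21 were tested as gene sums, and 0 were called by limma at adjusted p under 0.05 and a fold above 2. Over all genes tested, 24 of 44342 (0.0541%) were called, so 0 calls do not set the list apart. Of the 21, 3 had an unadjusted limma p under 0.05 (4730 of 44342 over all genes). The difference was below 0 in 16 of 21 (76.2%), with a median log2 difference of -0.23, whereas 50.7% of all genes tested were below 0 with a median of -0.01. With the TMM scaling undone 17 of the 21 were below 0 (55.7% of all genes), and with quantile normalization 16 (53.5% of all genes). This background takes every gene sum of at least 1 in at least 3 libraries, and most of the 21 lay far above that. Of the 6020 genes set beside those that switched, at 5 TPM or more in every library, 61.0% were lower in iMDK. Genes matched to the list in level were not counted, so no lowering of the list is read from these shares.

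TADBP, an RNA-binding protein that represses the use of cryptic exons, was at 65.2, 55.1 and 49.5 TPM in iMDK and 93.1, 82.7 and 76.3 TPM in DMSO. The groups did not overlap, and the log2 difference was -0.57 ± 0.16 (SE) with a limma adjusted p of 0.262. PTBP1, which binds pyrimidine-rich tracts and represses neighboring exons, was at 204.4, 142.8 and 177.3 TPM in iMDK and 255.7, 238.4 and 240.2 TPM in DMSO, with a log2 difference of -0.50 ± 0.18 (limma adjusted p = 0.373). Both were lower in every iMDK library than in any DMSO library, and neither passed the test. They were picked for the smallest limma p in the list, so the missing overlap follows largely from the choice. Over all transcripts tested, 8.41% were lower in iMDK without overlap, and the share over gene sums was not counted.

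Of the 9 factors of RNA decay, tail shortening and 3' end processing, 0 were called and 0 had an unadjusted limma p under 0.05. Over all genes tested these were 24 and 4730 of 44342, so 0 calls do not set the list apart. The difference was below 0 in 7 of 9 (8 with the TMM scaling undone, 7 with quantile normalization), against 50.7% of all genes tested. The median log2 difference was -0.16, against -0.01 over all genes. The limit of this background given above holds here too. CSTF2, a subunit of the cleavage stimulation factor that acts at poly(A) sites, was at 122.4, 113.5 and 98.7 TPM in iMDK and 139.4, 129.1 and 127.3 TPM in DMSO (log2 difference -0.25 ± 0.15 SE, limma adjusted p = 0.647). SMG1, a kinase of nonsense-mediated decay, was at 2.66, 2.28 and 2.72 TPM in iMDK and 3.56, 3.34 and 3.64 TPM in DMSO (-0.40 ± 0.25, limma adjusted p = 0.673). LSM1, a subunit of the ring that promotes decapping, was at 7.86, 4.87 and 5.29 TPM in iMDK and 8.83, 6.81 and 6.48 TPM in DMSO (-0.29 ± 0.26, limma adjusted p = 0.813). CSTF2 and SMG1 did not overlap between groups and LSM1 did. These factors too were picked for the smallest limma p in the list, so nothing is read from the missing overlap.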

How the data were processed

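RNA of 3 iMDK and 3 DMSO limbs was sequenced with Nextera XT libraries. Reads were trimmed (Trimmomatic) and assigned to a Trinity assembly (kallisto) by the authors, who used DESeq2 for their own tests. No version of these tools was stated in the sources at hand. The deposited signal holds, for each assembled transcript, TPM after TMM scaling of each library, and is not counts. Kallisto divides reads among near-identical isoforms, which bears directly on the shares given here.

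Isoforms were summed per assembled gene in Python 3.11.15 with pandas 2.3.3, and plots were drawn with matplotlib 3.10.9. Transcripts and gene sums with at least 1 in at least 3 libraries were put on the log2(value + 0.5) scale and compared by limma 3.58.1 in R 4.3.3 (mean-variance trend, 2-sided, Benjamini-Hochberg adjustment, called under 0.05 and above 2-fold, the thresholds of the study). Fold changes on this scale understate low transcripts. The p-values set the difference between groups against the spread between limbs, which limma estimates with help from all transcripts or gene sums tested. On simulated data over 51718 transcripts, the test recovered 0% of simulated log2 changes of 1, 7% of 2, 23.2% of 3 and 36.6% of 4. A log2 change of 1 lies on the 2-fold cutoff of a call, so some of these could not be called. Changes were set in both directions and values were cut at 0, so decreases of low transcripts could be smaller than set.

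The genes and lists were chosen with earlier results of these data known. Genes given in detail were the 3 with a name, the 10 with the largest margin, the 10 most abundant, the 4 with the smallest margin, the 2 nearest each side of each threshold, and up to 3 per list by p, of which 1 is not reported here. Outside this rule, c1078066_g1 and c1085679_g4 were chosen after their values were seen. Names came from blastx entries of transcripts differentially expressed in the skin flap experiment of the study and from its midkine receptors. They covered 1694 transcripts of the same assembly in all. The splicing and decay lists and the cell type markers were chosen from such names, so factors and markers without a name here are missing. No identifier of the matrix matched the RefSeq table used here.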

Additional observations from a re-analysis of the deposited data

How the results depend on the processing

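The number of genes that switched depended on the rule. It was 116 with a minimum sum of 2, 50 with 10, 42 within 1.2-fold, 89 within 2-fold, 98 with no limit on the sums, 53 where the leading isoform held 50% of the sum in every library, and 11 where it was 2-fold above the second isoform. With the TMM scaling undone it was 74, of which 68 were among the 73. Scaling cannot change which isoform leads within a library, so only the limits on the sums could remove a gene there. With 1 library left out, fewer libraries had to agree, and it was 101 to 132 (104, 122 and 101 without iMDK 1, 2 and 3, and 115, 132 and 121 without DMSO 1, 2 and 3), of which 66 to 71 were among the 73. The 34 calls of dominant isoforms were 29 to 42 under other pseudocounts, normalizations, no filter or no trend, 26 with a filter of at least 5, and 16 to 25 with 1 library left out (20, 22 and 16 without iMDK 1, 2 and 3, and 22, 25 and 22 without DMSO 1, 2 and 3). The 280 calls over all transcripts became 193 and 274 with pseudocounts of 0.1 and 1, 427 with no filter, 168 with a filter of at least 5, 1303 with no trend, 281 with the TMM scaling undone, 268 with quantile normalization, and 78 to 138 with 1 library left out. Calls over all transcripts were more often lower without iMDK 1 (37 higher and 53 lower) and without iMDK 2 (53 and 70). Without iMDK 3 they were nearly even (38 and 40). Without a DMSO library they were mostly higher (73 and 29, 93 and 45, and 81 and 39 without DMSO 1, 2 and 3). The cause of these changes was not tested beyond the smaller number of libraries or transcripts in a fit. Gene sums of the 73 genes and of both lists gave 0 calls under every alternative run.

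Same-numbered libraries did not deviate together (correlations of 0.062, 0.039 and 0.010), so the replicate numbers were not taken as pairs. With the replicate number as a block, 5 dominant isoforms and 30 transcripts in all were called.

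The rule set which isoform led in every library, so the direction of the share change was largely fixed in advance. The count that follows is therefore no evidence for the switches. With each library left out in turn, the change in share of the iMDK-dominant isoform kept its direction in 137 of 138 values over 23 genes. The exception was c1089283_g1, at 0.0627 points without iMDK 3 against -0.516 with all libraries, over a range of -1.32 to 0.0627.

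TPM values hold no depth, so isoforms at a few TPM carry an unknown counting error, and 24 genes had a margin under 5 points. Isoforms that differ over short stretches are the hardest to separate, and their sequences were not used here. Assembled isoforms that are alleles cannot be told apart from splice forms in this matrix, and each limb is another animal.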
